A study of Tachycineta bicolor and Sialia sialis and Hirundo rustica with 121 samples.

Results

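Males of obligate cavity nesters were compared with males of less obligate species of the same families, using 59 of the 121 birds of the series. The 59 libraries are all those labelled male except Carolina Wren male 3, with 30 from obligate species and 29 from their partners. Among swallows (Hirundinidae) 6 obligate Tree Swallows were set against 6 Barn Swallows, which nest in open cups, and among wood warblers (Parulidae) 6 obligate Prothonotary Warblers against 6 open cup Yellow Warblers. Old World sparrows (Passeridae) gave 6 obligate Eurasian Tree Sparrows and 6 House Sparrows, which use cavities facultatively, and wrens (Troglodytidae) 6 obligate House Wrens and 5 facultative Carolina Wrens. Thrushes (Turdidae) gave 6 obligate Eastern Bluebirds and 6 open cup American Robins, called robins here. All were adults from the Midwestern United States, taken while territories were being set up and nests built and before the first eggs, and their age is not stated further. RNA of the ventromedial telencephalon was sequenced as stranded mRNA libraries. The design asks whether nesting strategy goes with brain gene expression, beside aggression and testosterone, which were not analysed here.

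An obligate cavity nester breeds only in a hole, and because holes are few and taken by many species, owners have to win and hold them. The ventromedial telencephalon of songbirds includes nuclei of the social behaviour network, which carry receptors for steroid hormones and neuropeptides and take part in territorial aggression. In males, testosterone can act there through oestrogen receptors after conversion to oestradiol by aromatase.

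Total counts per male ran from 4534374 to 7549296 over 10672 genes, of which 911 had no gene symbol and are counted but not named. Levels are given as CPM, counts scaled to library size and composition by the TMM method, and changes as log2 of obligate over partner. Each male correlated with the other males of its species at a median of 0.859 to 0.983, and the lowest value belonged to Eastern Bluebird male 12. CHD1W, on the W chromosome that females carry and males lack, stood at 0 to 18.4 CPM in the 59 males and 21.0 to 99.7 CPM in the 60 females used for comparison. It stood at 67.7 CPM in the library labelled Carolina Wren male 3, which was left out. Among bluebirds, male 13 had 10.2 CPM of CHD1W, against 0 to 0.311 CPM in the other males and 20.8 to 31.0 CPM in the females. These bluebird values were scaled within each sex, and the CHD1W values before them over all birds together. Any difference between species in how well their reads matched the reference, zebra finch proteins by the name of the deposited table, is part of every fold change below. In these bulk samples, fewer cells of a type and less RNA per cell cannot be told apart.

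Within a family, a large share of all genes differed between the males of the obligate species and those of its partner. In Hirundinidae 4873 of 10373 genes tested passed an adjusted p of 0.05 by edgeR's quasi-likelihood test with Benjamini-Hochberg adjustment (47%), with 2341 higher (22.6%) and 2532 lower (24.4%) in Tree Swallows. The same test called 4185 genes in Parulidae (40.3%), 2168 of them higher (20.9%) and 2017 lower (19.4%) in Prothonotary Warblers, and 3953 in Passeridae (38.1%), 1939 higher (18.7%) and 2014 lower (19.4%) in Eurasian Tree Sparrows. In Troglodytidae it called 4544 genes (43.4%), 2437 higher (23.3%) and 2107 lower (20.1%) in House Wrens, and in Turdidae 3627 (34.9%), 1806 higher (17.4%) and 1821 lower (17.5%) in Eastern Bluebirds. The males of both species did not overlap at all for 29% of genes in Hirundinidae, 24% in Parulidae, 24% in Passeridae, 29.6% in Troglodytidae and 20.8% in Turdidae. Scaling to library size alone moved the median change of all genes to -0.17 in Parulidae and -0.17 in Passeridae. Only 33.4% and 33.2% of the calls in those families were then higher in the obligate species, against 51.8% and 49.1% with TMM. These p-values set the difference between 2 species against the spread among the birds of each, and a species has only 1 nesting strategy. Nesting strategy is thus not replicated within a family.

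The largest changes with a symbol and no overlap were largely mitochondrially encoded respiratory genes, and within 1 family they went in opposite directions. In Hirundinidae ND2, a complex I subunit, stood at 9687 to 12915 CPM in Tree Swallow males and 6.42 to 64.7 CPM in Barn Swallow males (log2 8.42), whereas ATP6, an ATP synthase subunit, stood at 2.74 to 118.8 CPM and 14500 to 25411 CPM (log2 -8.47). In Troglodytidae CYTB was higher (log2 11.37) and ND4 lower (log2 -11.19) in House Wrens. In Turdidae ND6 was higher (log2 7.25) and ND3 lower (log2 -6.04) in Eastern Bluebirds. The mitochondrial share of counts was 14.8% to 25.0% in Prothonotary Warblers and 9.04% to 13.0% in Yellow Warblers, and 16.0% to 23.1% in Eurasian Tree Sparrows and 6.41% to 12.0% in House Sparrows, without overlap in either family. It was 11.0% to 12.9% in House Wrens and 15.1% to 18.7% in Carolina Wrens, again without overlap, and overlapped in the other 2 families. The part of read matching in these values was not tested.

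Nuclear genes led the lists as well. TRIM37, a ubiquitin ligase, stood at 291.6 to 473 CPM in Tree Swallows against 6.09 to 13.7 CPM in Barn Swallows (log2 5.21), and ASTN1, a neuronal migration protein, was lower (log2 -4.42). In Prothonotary Warblers ROBO1, an axon guidance receptor, stood at 4.84 to 7.10 CPM against 60.9 to 82.6 CPM in Yellow Warblers (log2 -3.62), and GGACT was lower as well (log2 -3.50). Eurasian Tree Sparrows had less PDS5B, a cohesin regulator (log2 -3.74), WRN, a DNA helicase (log2 -3.52), and PCCA, a mitochondrial carboxylase subunit (log2 -2.65). House Wrens had more CABIN1, a calcineurin inhibitor (log2 3.90), and less CANX, the chaperone calnexin, at 29.7 to 45.1 CPM against 611.4 to 835 CPM in Carolina Wrens (log2 -4.22). Eastern Bluebirds had more EFR3A, a plasma membrane scaffold (log2 5.45), and PTPRS, a receptor phosphatase (log2 5.16), and less COL7A1, a collagen (log2 -3.74). Each of these nuclear genes had the same sign in females of the same species pair.

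Markers of other cell types moved in some families. Of 9 blood cell markers tested in Turdidae, 8 were lower and none was higher in bluebird males (median log2 -1.56), including the haemoglobins HBAD (-1.32) and HBAA (-1.25), where 17.5% of all genes were lower and 17.4% higher. The summed level of the list ran from 383 to 1338 CPM in bluebirds and from 512 to 2669 CPM in robins. Of 10 microglial markers, 5 were lower and 2 higher in bluebirds (median -1.13), with sums of 152 to 444 CPM in bluebirds and 327 to 453 CPM in robins. In Troglodytidae 5 of 11 oligodendrocyte markers were lower and none was higher (median -0.39), against 20.1% and 23.3% of all genes, with sums of 3167 to 4978 CPM in House Wrens and 5514 to 7094 CPM in Carolina Wrens, which did not overlap. In Parulidae 6 of 15 excitatory neuron markers were higher and none was lower in Prothonotary Warblers (median 0.36), against 20.9% and 19.4% of all genes, with sums of 798 to 1855 CPM and 906 to 1300 CPM in Yellow Warblers. In House Wrens 3 were higher and 1 lower, with sums of 1045 to 1724 CPM against 1930 to 2787 CPM in Carolina Wrens. Of 8 astrocyte markers, 3 were higher and 3 lower in bluebirds. Their sums were 2934 to 3972 CPM in bluebirds and 1803 to 2331 CPM in robins. In Eurasian Tree Sparrows 3 were higher and 1 lower, against 18.7% and 19.4% of all genes. Sums there were 3150 to 3473 CPM, and 3656 to 5023 CPM in House Sparrows. Choroid plexus and ependymal markers summed to between 67.2 and 11224 CPM over all males. The part of these cells in the results below was not tested.

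Females of the same species, which share no birds with the male comparisons, gave mostly the same directions. In females 39.8%, 45.5%, 35.6%, 46% and 52.8% of genes were called in Hirundinidae, Parulidae, Passeridae, Troglodytidae and Turdidae. Of the genes called in males and tested in both sexes, 97.7%, 99.0%, 97.9%, 96.7% and 99.5% had the same sign in females, in the same family order. In Hirundinidae 71.6% of the male list and 84.4% of the female list were called the same way in the other sex. The shares of the male and female lists were 84.7% and 75.0% in Parulidae, 74.9% and 80.5% in Passeridae, 77.6% and 73.3% in Troglodytidae, and 91.4% and 60.6% in Turdidae. Between 2 and 5 genes a family were called in opposite directions in males and females.

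Few genes were called in 1 direction across all 5 families. Of the 9995 genes tested in all 5 families, 408 were called in every family, and 387 of these were called higher in some and lower in others. The remaining 21 genes (0.21% of those tested, 5.15% of the 408) moved 1 way in all 5 families, 9 of them higher (0.09%) and 12 lower (0.12%) in obligate males. In females 27 of 10059 genes did so (0.268%), and 12 genes were on both lists, 57.1% of the male list and 44.4% of the female list. All 21 male genes had the same sign in the females of all 5 families. Of all genes called in the males of a family, 96.7% to 99.5% kept their sign in its females, so this is not particular to the 21. Directions falling at random over families would also leave some genes moving 1 way in all 5, and whether 21 exceeds that was not tested. A test of whether the difference depends on the family, added after the data were seen, called 8253 of 10642 genes in males (77.6%, edgeR's quasi-likelihood test, adjusted p under 0.05).

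CLCC1, a protein of the endoplasmic reticulum that takes part in chloride transport, fell in all 5 families. In Hirundinidae it stood at 22.5, 28.6 and 31.7 CPM (lowest, median and highest) in Tree Swallows and 56.6, 76.0 and 91.4 CPM in Barn Swallows. In Parulidae it stood at 12.7, 17.8 and 19.9 CPM in Prothonotary Warblers and 36.2, 41.7 and 51.1 CPM in Yellow Warblers. In Passeridae Eurasian Tree Sparrows had 29.1, 35.8 and 37.0 CPM and House Sparrows 54.2, 70.1 and 82.8 CPM. Every obligate male was thus below every partner male in these families. House Wrens had 26.3, 29.2 and 35.4 CPM, and the 5 Carolina Wrens 68.4, 75.6, 81.6, 86.6 and 89.3 CPM. Eastern Bluebirds had 14.0, 27.0 and 33.3 CPM, and robins 45.4, 57.9 and 62.6 CPM. No family overlapped, and the log2 changes were -1.45 ± 0.12, -1.33 ± 0.13, -0.99 ± 0.11, -1.35 ± 0.11 and -1.21 ± 0.22 (SE) in the same family order. The largest adjusted p of the 5 was 0.000382 (edgeR), and whether the fall depended on the family gave an adjusted p of 0.201 (edgeR). That test also missed the threshold for POGLUT1 (0.0731), LRRC7 (0.302) and ADI1 (0.754). It passed for every other named shared gene, such as TXNRD3 (0.0122) and RAB3GAP1 (7.38e-12). All of them were chosen from these same male values for moving 1 way in all 5 families. In females of the 5 families CLCC1 changed by -1.39, -1.48, -0.69, -1.40 and -1.21, each past the threshold.

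TXNRD3, a thioredoxin reductase of the cell's redox system, fell in all 5 families without overlap as well. Tree Swallows had 128, 165 and 172 CPM, against 354, 365 and 410 CPM in Barn Swallows. Prothonotary Warblers had 121, 178 and 180 CPM, against 237, 280.3 and 299 CPM in Yellow Warblers. The gap in Parulidae was narrower than in Hirundinidae, with log2 changes of -0.76 ± 0.11 and -1.27 ± 0.09. Eurasian Tree Sparrows had 99.5, 123 and 151 CPM, against 185, 216 and 231 CPM in House Sparrows (log2 -0.79 ± 0.11). House Wrens had 125, 137 and 152 CPM, against 229, 240.0, 251, 278 and 330.5 CPM in Carolina Wrens (log2 -0.89 ± 0.08). Eastern Bluebirds had 93.5, 115 and 149.9 CPM, against 206, 234 and 288 CPM in robins (log2 -1.02 ± 0.13). The largest of its 5 adjusted p-values was 6.56e-05 (edgeR).

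POGLUT1, which adds O-glucose to Notch and related receptors, was likewise below the partner in every family without overlap. Tree Swallows had 7.36, 9.12 and 12.6 CPM and Barn Swallows 18.6, 25.0 and 31.4 CPM (log2 -1.40 ± 0.17). Prothonotary Warblers had 5.83, 7.77 and 9.16 CPM and Yellow Warblers 14.2, 18.7 and 21.8 CPM (log2 -1.27 ± 0.17). Its fall was of similar size in Passeridae, where Eurasian Tree Sparrows had 3.95, 7.46 and 10.6 CPM and House Sparrows 15.1, 17.4 and 28.3 CPM (log2 -1.35 ± 0.23). House Wrens had 10.5, 13.9 and 19.0 CPM and Carolina Wrens 21.5, 22.0, 24.8, 25.5 and 37.0 CPM (log2 -0.79 ± 0.18). Eastern Bluebirds had 6.68, 10.9 and 13.9 CPM and robins 15.5, 17.6 and 21.1 CPM (log2 -0.77 ± 0.25), with the largest adjusted p of the 5, 0.022 (edgeR).

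Among the other 9 lower genes, CDADC1, of the cytidine deaminase family, fell most in Tree Swallows, at 12.3, 19.6 and 20.7 CPM against 53.7, 76.8 and 79.7 CPM in Barn Swallows (log2 -2.05), and by 0.59 to 1.32 on the log2 scale elsewhere, with no overlap in any family. PPP2R2D, a regulatory subunit of protein phosphatase 2A, fell most in Parulidae and Turdidae. Prothonotary Warblers had 2.84, 4.06 and 4.65 CPM against 35.0, 43.9 and 50.9 CPM in Yellow Warblers (log2 -3.51). Eastern Bluebirds had 0, 5.64 and 9.03 CPM against 41.2, 59.6 and 64.2 CPM in robins (log2 -3.55), while the other families changed by -0.48 to -0.85. EML6, a microtubule-associated protein, stood at 11.5, 14.6 and 19.2 CPM in Prothonotary Warblers and 49.1, 56.3 and 87.8 CPM in Yellow Warblers (log2 -2.01), and changed by -0.50 to -1.39 elsewhere. MOGAT1, an acyltransferase that makes diacylglycerol, was lower without overlap in 3 families. Tree Swallows had 5.91, 10.5 and 16.7 CPM against 23.8, 31.1 and 49.8 CPM in Barn Swallows (log2 -1.64), and Eurasian Tree Sparrows 15.1, 16.7 and 21.1 CPM against 34.9, 41.0 and 57.1 CPM in House Sparrows (log2 -1.31). House Wrens had 11.3, 14.5 and 15.8 CPM against 37.5, 40.9, 43.9, 45.8 and 47.1 CPM in Carolina Wrens (log2 -1.56). The pairs of Parulidae (-0.56) and Turdidae (-0.86) overlapped. Its call in Turdidae ended when any of 8 males was left out.

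None of the 5 remaining lower genes changed beyond -1.25 in any family. RPS12, a protein of the small ribosomal subunit, changed by -0.59 to -1.25, but counts of ribosomal genes can be split with near-identical copies and its values are uncertain. ADI1, of the methionine salvage pathway, changed by -0.56 to -0.83, LRRC7, a postsynaptic scaffold, by -0.43 to -1.11, SCRN1, a secernin, by -0.31 to -0.96, and TMEM87A, a Golgi membrane protein, by -0.28 to -1.03. LRRC7 overlapped between species in all 5 families. Leaving out 1 male ended the shared call of ADI1 for 7 of the 59 males and of TMEM87A for 6.

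**Figure D1:**
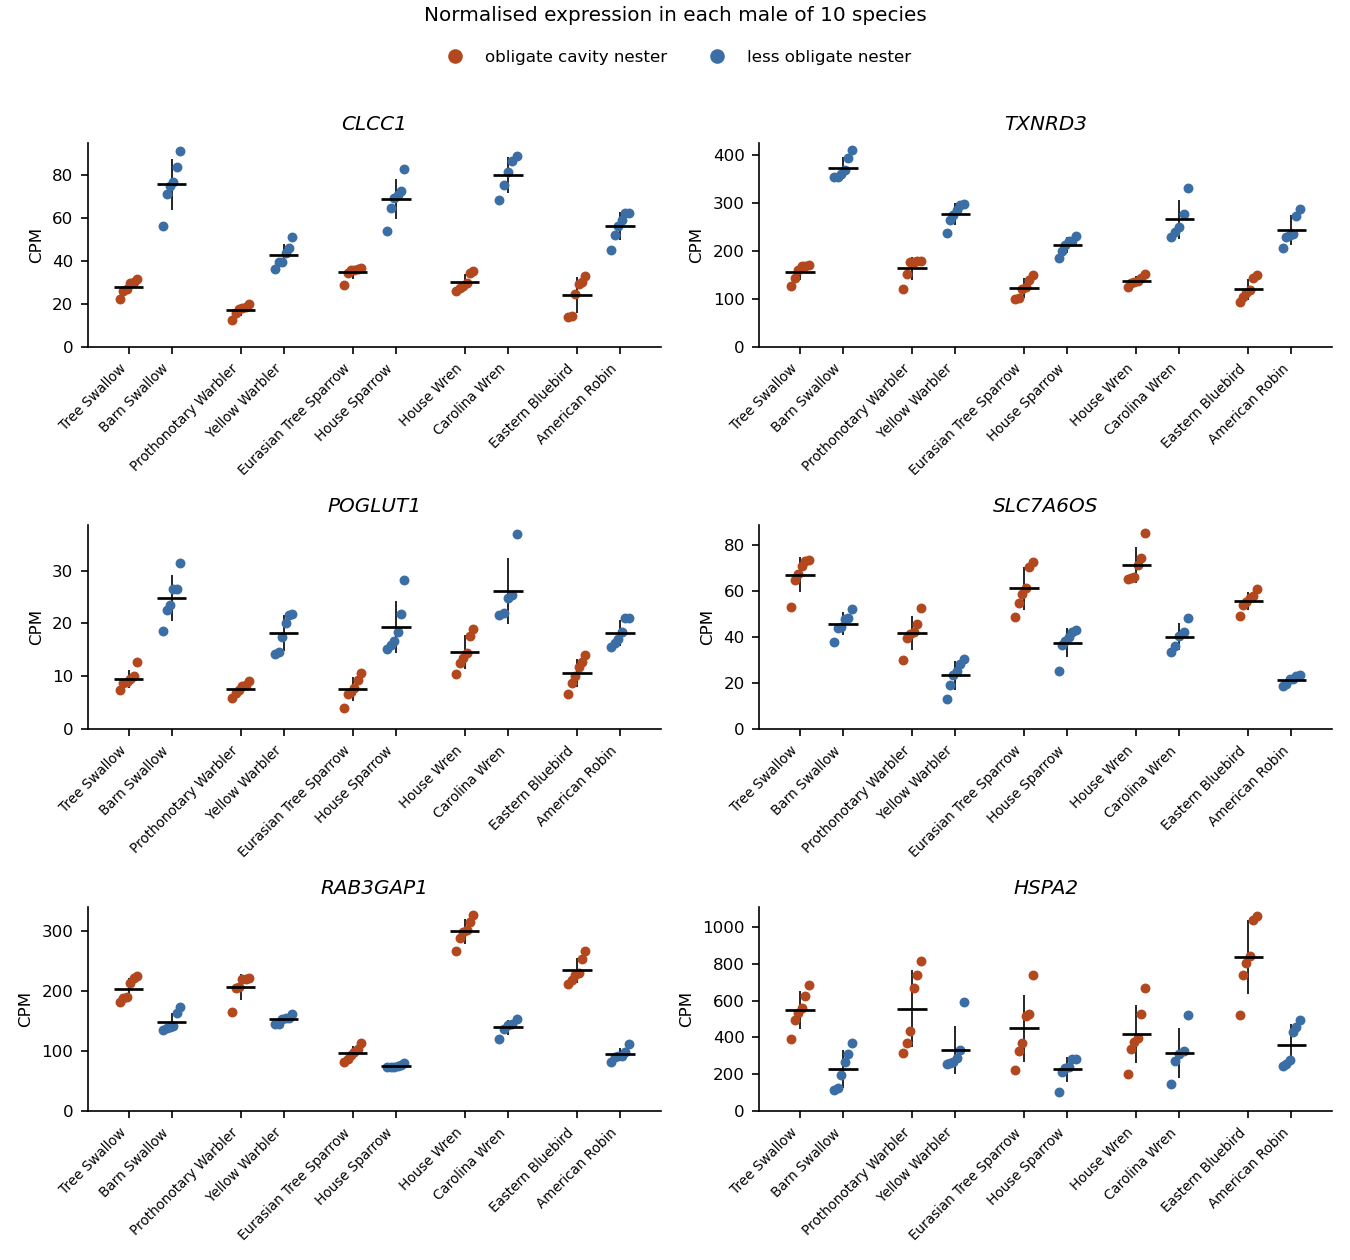
CPM (vertical axes, linear) of CLCC1, TXNRD3, POGLUT1, SLC7A6OS, RAB3GAP1 and HSPA2 in each of the 59 males, by species, with the obligate species left of its partner in each family. Points are males, horizontal lines means and vertical bars SD; CLCC1, TXNRD3 and POGLUT1 lie lower in the obligate species in every pair, with no overlap, while HSPA2 overlaps in 3 of the 5 pairs.

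Of the genes higher in all 5 families, RAB3GAP1, the catalytic subunit of a GTPase-activating complex for Rab3 that takes part in transmitter release, did not overlap in any family. Tree Swallows had 182, 201 and 225 CPM against 134, 140.2 and 173 CPM in Barn Swallows, and Prothonotary Warblers 164, 213 and 220.4 CPM against 144, 154 and 162 CPM in Yellow Warblers. In Eurasian Tree Sparrows it stood at 80.9, 96.2 and 113 CPM against 72.9, 74.3 and 80.5 CPM in House Sparrows. These 3 rises were small, with log2 changes of 0.44 ± 0.09, 0.42 ± 0.09 and 0.35 ± 0.10. House Wrens had 267, 299 and 327 CPM against 119.8, 136, 143, 145 and 153 CPM in Carolina Wrens, and Eastern Bluebirds 212, 228 and 266 CPM against 81.4, 91.4 and 112 CPM in robins. In these families it rose by 1.15 ± 0.08 and 1.31 ± 0.11. The largest adjusted p was 0.00873 (edgeR), in Passeridae. With counts scaled to library size alone the change was 0.25 in Parulidae and 0.19 in Passeridae, and neither passed the threshold.

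SLC7A6OS, a protein linked to nuclear import of RNA polymerase II, rose by 0.54 ± 0.11 in Tree Swallows (52.8, 68.9 and 73.4 CPM against 37.6, 46.0 and 52.2 CPM in Barn Swallows). Prothonotary Warblers had 29.9, 41.6 and 52.3 CPM against 13.0, 24.3 and 30.4 CPM in Yellow Warblers, which was the only overlap of its 5 pairs (log2 0.83 ± 0.18). Eurasian Tree Sparrows had 48.5, 60.0 and 72.6 CPM against 25.4, 39.1 and 42.8 CPM in House Sparrows (log2 0.70 ± 0.14). The rise in Troglodytidae was close to that in Parulidae, and the rise in Turdidae was the largest. House Wrens had 64.9, 68.5 and 85.0 CPM against 33.4, 36.1, 40.4, 42.2 and 48.2 CPM in Carolina Wrens (log2 0.87 ± 0.11). Eastern Bluebirds had 49.0, 56.0 and 60.7 CPM against 18.9, 21.8 and 23.3 CPM in robins (log2 1.38 ± 0.14). Its largest adjusted p was 0.00179 (edgeR), and females rose in all 5 families too.

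Several of the other higher genes changed most in 1 family. TAF1B, an initiation factor of RNA polymerase I, stood at 29.3, 40.4 and 46.2 CPM in Tree Swallows and 8.42, 12.0 and 15.3 CPM in Barn Swallows (log2 1.72), and changed by 0.46 to 0.92 elsewhere. DNAAF9, which takes part in the assembly of ciliary dyneins, rose most in Prothonotary Warblers (3.16) and least in Tree Swallows (0.33). TRMT1L, related to tRNA methyltransferases, rose most in Eurasian Tree Sparrows (2.37) and least in Prothonotary Warblers (0.31), and WBP2NL, a sperm protein in mammals, ran from 0.30 in Tree Swallows to 2.39 in Eurasian Tree Sparrows. PTPDC1, a phosphatase linked to cilia, rose by 0.45 to 1.92, and NT5C2, a cytosolic nucleotidase, by 0.33 to 0.97. The ninth gene has no symbol. PTPDC1 was called in the females of 2 families only, while TAF1B, DNAAF9 and TRMT1L were called in those of all 5. Leaving out 1 male ended the shared call of DNAAF9 for 15 of the 59 males, of TRMT1L for 9, of WBP2NL for 7 and of NT5C2 for 1 (Carolina Wren male 6). Scaling to library size alone ended TAF1B (0.27) and TRMT1L (0.14) in Parulidae and PTPDC1 (0.29) in Passeridae, keeping Carolina Wren male 3 ended TAF1B in Troglodytidae (0.35), and leaving out the filter on low counts ended DNAAF9 in Turdidae (0.39).

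**Figure D2:**
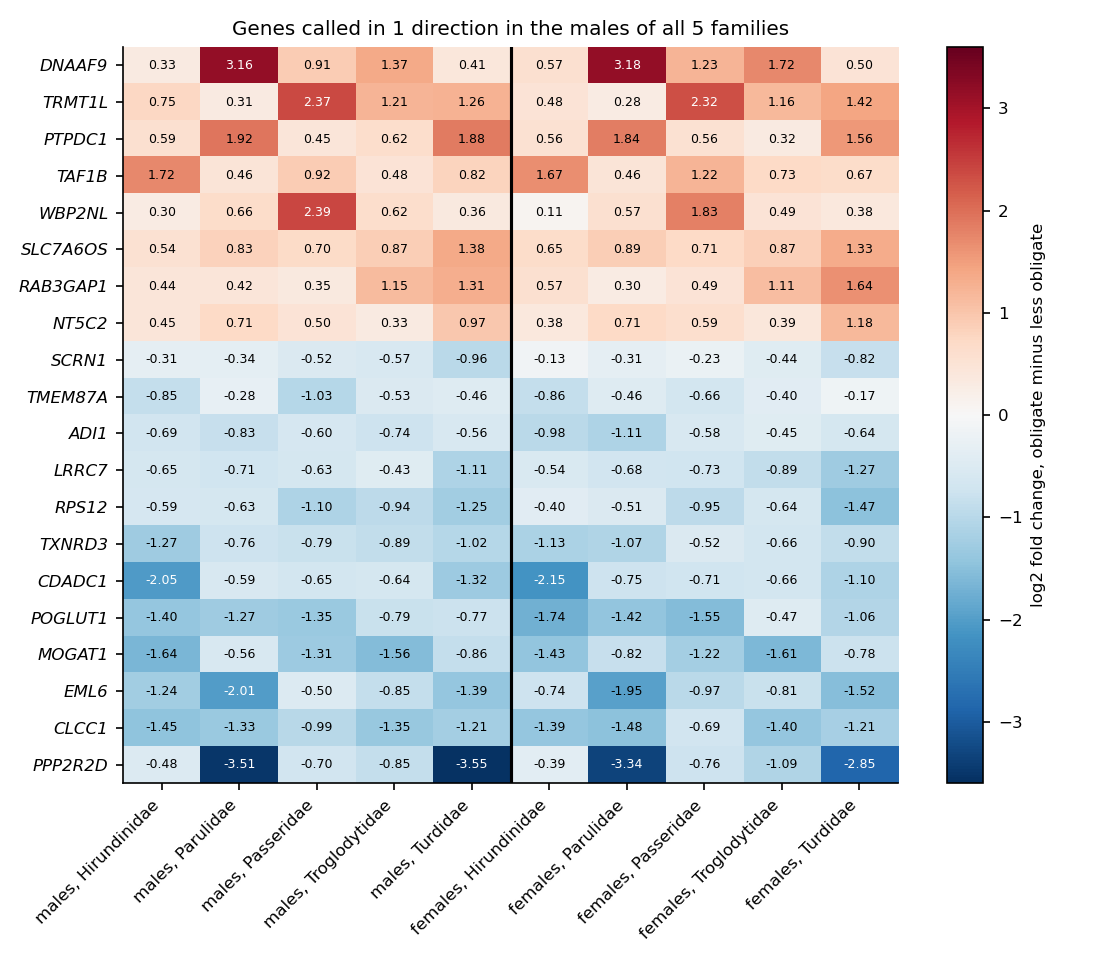
Log2 change (colour) of the 20 named genes that moved 1 way in males of all 5 families, with genes down the page and families across, males on the left and females on the right. Colours keep their sign from males to females in every cell, as did 96.7% to 99.5% of all genes called in the males of a family. The largest single values are those of PPP2R2D and DNAAF9 in a few families.

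With the species as the unit, no gene passed the threshold. Limma on the 10 male species means with family as a block, which leaves 4 residual degrees of freedom before limma pools the spread over genes, called 0 of 10642 genes (0%). At an unadjusted p under 0.05 it found 456 genes (4.28%; 235 higher and 221 lower), fewer than the 532 that 5% of the genes would give, and the smallest adjusted p was 0.906. EdgeR on counts summed over the males of a species also called 0, with 413 genes at an unadjusted p under 0.05. The smallest p belonged to CLCC1, with a mean log2 change of -1.27 ± 0.17 (SE), and POGLUT1 (-1.11 ± 0.18) and TXNRD3 (-0.95 ± 0.17) followed. MOGAT1 averaged -1.16 ± 0.23. DIO1, a deiodinase that activates thyroid hormone, averaged -1.01 ± 0.19 and had too few counts to be tested within a family. On the higher side stood HSPA2 (0.94 ± 0.20), SLC7A6OS (0.86 ± 0.19), SHLD1, a DNA repair factor (0.98 ± 0.22), NOB1, of ribosome maturation (0.81 ± 0.19), and LDB3, a protein of the muscle Z-disc (1.39 ± 0.32). None of these passed the threshold after adjustment.

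HSPA2, a chaperone of the Hsp70 family, was higher in 5 of 5 families and called in 4. Tree Swallows had 393, 545 and 682 CPM against 114, 229.6 and 369.6 CPM in Barn Swallows (log2 1.24 ± 0.24), and Eastern Bluebirds 521, 822 and 1060.5 CPM against 244, 355 and 494 CPM in robins (log2 1.21 ± 0.20), without overlap in either family. Eurasian Tree Sparrows had 223, 443 and 738 CPM against 103, 239 and 284 CPM in House Sparrows (log2 0.99 ± 0.27), and Prothonotary Warblers 313, 550.3 and 814 CPM against 253, 278 and 594 CPM in Yellow Warblers (log2 0.73 ± 0.26). Both pairs overlapped, and in Parulidae the adjusted p of 0.0335 (edgeR) was lost when any of 8 males was left out and with counts scaled to library size alone (log2 0.54). House Wrens had 203, 388 and 666 CPM against 149.8, 274, 309, 327 and 521 CPM in Carolina Wrens, a log2 change of 0.44 ± 0.32 that missed the threshold (adjusted p = 0.292, edgeR).

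Whether the difference between obligate and partner species was itself different in males and females was tested by the interaction of sex and species in each family. Few genes passed: 10 in Hirundinidae (0.095%), 11 in Parulidae (0.105%), 11 in Passeridae (0.105%), 22 in Troglodytidae (0.209%) and 6 in Turdidae (0.0568%), by edgeR's quasi-likelihood test with an adjusted p under 0.05. These were 60 combinations of gene and family, from 38 genes, 17 of them without a symbol, and 13 genes recurred in at least 2 families. In 38 of the 60 combinations the species differed in both sexes, in 8 they were called in males only and in 13 in females only. The last include genes without a symbol that had too few counts in males to be tested there. Over species means the male minus female difference gave 0 of 10648 genes (0%) past the threshold by limma and 447 at an unadjusted p under 0.05 (4.2%).

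GOLPH3, a Golgi protein of membrane trafficking, differed more in males than in females in Parulidae and Troglodytidae. Prothonotary Warbler males had 15.0, 23.2 and 26.3 CPM, against 0.368, 0.651 and 1.57 CPM in Yellow Warbler males (log2 4.64 ± 0.28). Females had 16.9, 19.3 and 21.4 CPM in Prothonotary Warblers and 18.0, 23.9 and 24.3 CPM in Yellow Warblers, a change of -0.23 that missed the threshold. Yellow Warbler males were the low group, and the difference between the sexes was 4.86 (adjusted p = 1.23e-11, edgeR). House Wren males had 57.4, 65.9 and 80.3 CPM, against 2.86, 3.23, 3.77, 4.46 and 5.97 CPM in Carolina Wren males (log2 4.09 ± 0.18). Females had 36.9, 39.8 and 43.4 CPM in House Wrens and 29.8, 35.1 and 39.4 CPM in Carolina Wrens (0.14), and the difference between the sexes was 3.91. With Carolina Wren male 3 and female 1, whose CHD1W levels went against their labels, kept under those labels, it was 2.38 and missed the threshold (adjusted p = 0.112, edgeR). GOLPH3 was called in both sexes of Hirundinidae (-0.87 in males and -1.10 in females) and of Passeridae (0.95 and 0.45), where the difference between the sexes missed the threshold.

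DCAF12, a substrate receptor of a ubiquitin ligase, and ZNF462, a zinc finger protein, stood out in Turdidae. DCAF12 had 20.8, 29.8 and 33.9 CPM in bluebird males and 0, 0 and 0.149 CPM in robin males. The summed counts were 1009 in bluebirds and 1 in robins, a ratio of depth-scaled counts of 1146 with a 95% exact counting interval of 205 to 45320. That interval covers the counting of pooled reads only and leaves out the spread between birds. Females had 15.2, 17.9 and 21.7 CPM in bluebirds and 2.67, 4.40 and 8.03 CPM in robins (log2 1.92). ZNF462 had 2.88, 6.82 and 51.9 CPM in bluebird males and 111, 135 and 154 CPM in robin males (log2 -3.12 ± 0.52). The value of 51.9 CPM belonged to bluebird male 13, the male with CHD1W counts, and the others had 2.88 to 17.0 CPM. In females ZNF462 stood at 83.3, 120.3 and 154 CPM in bluebirds and 60.4, 81.7 and 99.5 CPM in robins (log2 0.49). Without male 13 the difference between the sexes was -4.55, against -3.62 with it.

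In Hirundinidae SMAD2, which carries TGF-beta signals to the nucleus, had 8.95, 11.0 and 14.8 CPM in Tree Swallow males and 32.3, 36.3 and 41.0 CPM in Barn Swallow males (log2 -1.67 ± 0.14). Females had 19.5, 21.9 and 37.1 CPM in Tree Swallows and 20.3, 24.4 and 27.0 CPM in Barn Swallows, which overlapped (0.12). NDUFA1, a nuclear complex I subunit, had 49.4, 68.9 and 81.8 CPM in Tree Swallow males and 0.903, 1.86 and 5.02 CPM in Barn Swallow males (log2 4.74 ± 0.29). It changed less in females, with 24.0, 39.8 and 49.1 CPM in Tree Swallows and 3.46, 11.1 and 24.8 CPM in Barn Swallows (log2 1.44).

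For 2 further genes the sexes differed in the size or sign of the change. ATP5F1A, the alpha subunit of ATP synthase, had 246, 286 and 449 CPM in Eurasian Tree Sparrow males and 174, 193 and 252 CPM in House Sparrow males (log2 0.63 ± 0.15). Females went the other way, with 245, 305 and 322 CPM in Eurasian Tree Sparrows and 517, 647 and 674 CPM in House Sparrows (log2 -1.07). PTCH1, the hedgehog receptor, had 9.12, 10.3 and 12.3 CPM in House Wren males and 1.54, 4.03, 4.06, 5.48 and 6.99 CPM in Carolina Wren males (log2 1.28 ± 0.28). It rose more in females, with 39.5, 47.5 and 53.4 CPM in House Wrens and 1.64, 2.54 and 2.90 CPM in Carolina Wrens (log2 4.20). In chicken GOLPH3, DCAF12, ZNF462, SMAD2, ATP5F1A and PTCH1 lie on the Z chromosome, of which males carry a pair and females 1. The files give no chromosomes, so other genes named for a difference between the sexes may lie there too. The part of sex linkage in these values and in those of the next paragraph was not tested.

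Further named genes with a different change in the sexes were spread over 3 families. In Hirundinidae ZBTB33, a zinc finger repressor, rose more in males (2.57) than in females (0.97), and SREK1, a splicing factor, fell in males (-0.48) and rose in females (0.71). In Passeridae DCAF12 fell in males (-2.18) and gave 0.47 in females, which missed the threshold, and NT5E, a surface enzyme that makes adenosine, rose less in males (0.72) than in females (1.71). The NT5E difference between the sexes missed the threshold without House Sparrow female 3 (adjusted p = 0.0777, edgeR) and with counts scaled to library size alone. In Troglodytidae DCAF12 (3.14 in males and 1.57 in females) and ZFR, an RNA-binding zinc finger protein (1.63 and 0.50), rose more in males. RPL37, a ribosomal protein (-3.06 and -1.07), and PRKAA1, a catalytic subunit of AMP-activated kinase (-1.95 and -1.35), fell more in males. Keeping Carolina Wren male 3 and female 1 ended the calls of DCAF12, ZFR and PRKAA1 for the difference between the sexes in Troglodytidae.

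**Figure D3:**
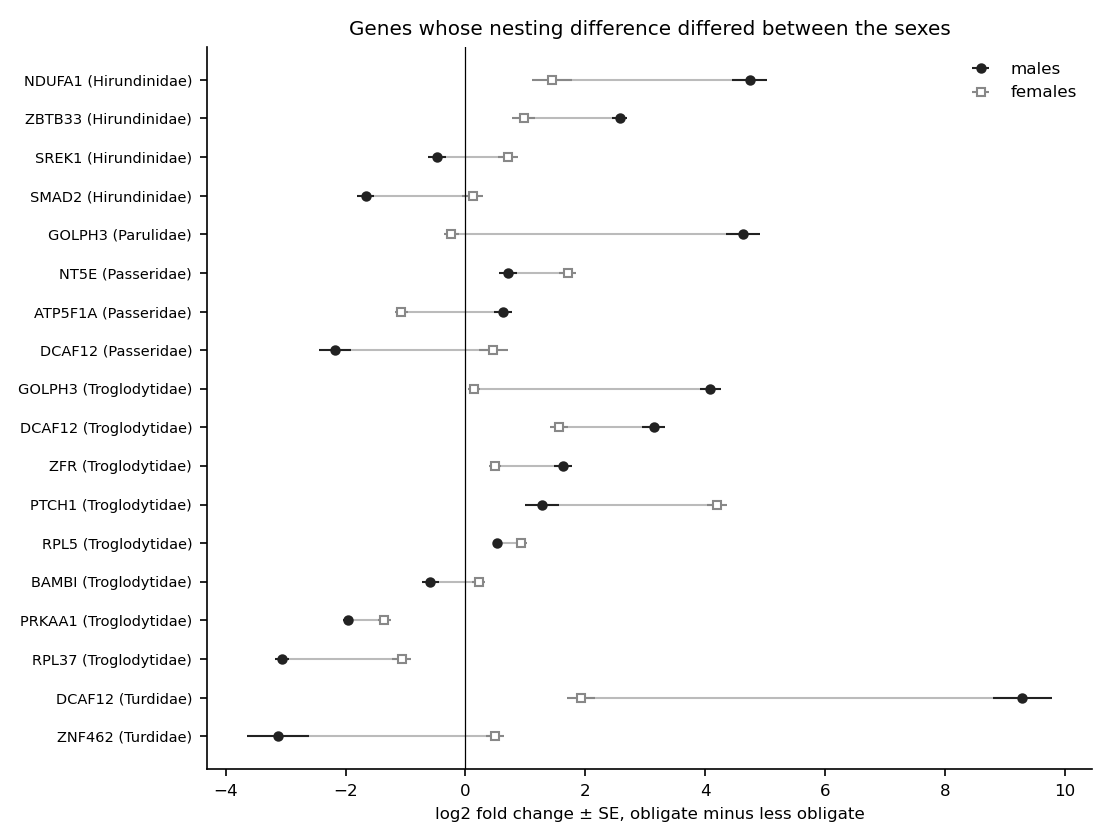
Log2 change of obligate over partner species with SE (horizontal axis) in males (filled circles) and females (open squares), by family. Shown are genes with a symbol, except CHD1W, whose change differed between the sexes and was called in males. The symbols are far apart for GOLPH3 in Parulidae and Troglodytidae and for DCAF12 in Turdidae, whose fitted value rests on 1 count in robin males and is no bound. Those of ATP5F1A, ZNF462 and SREK1, called in both sexes, lie on opposite sides of 0. So do those of SMAD2, BAMBI, GOLPH3 in Parulidae and DCAF12 in Passeridae, where the change in females missed the threshold. BAMBI and RPL5, in Troglodytidae, are shown only here.

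COX3, a mitochondrially encoded subunit of cytochrome c oxidase, missed the threshold for a difference between the sexes in Passeridae. Its value there changed greatly without 1 library. Males had 43747, 47269 and 72354 CPM in Eurasian Tree Sparrows and 3.73, 7.97 and 17.5 CPM in House Sparrows (log2 12.57 ± 0.42). Females changed by 2.16, which missed the threshold, and 1 of the 6 House Sparrow females, female 3, had 86695 CPM where the others had 6.09 to 20.7 CPM. Without that library the female change was 12.71 (adjusted p = 1.08e-10, edgeR) and the difference between the sexes was -0.12.

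Genes of sex steroid signalling differed within families without a shared direction. Of 12 measured genes of steroid synthesis, 9 were called in at least 1 family (75.0%), 5 of them in 1 direction and 4 in both, and of 23 receptors and cofactors 20 were called (87.0%), 12 in 1 direction and 8 in both. Of the 9995 genes tested in all families 85.4% were called in at least 1 and 42.8% in both directions. CYP19A1, the aromatase that converts testosterone to oestradiol, was higher in 2 obligate species. Tree Swallows had 30.4, 46.3 and 67.9 CPM against 15.7, 23.4 and 50.5 CPM in Barn Swallows (log2 0.82 ± 0.25, with overlap), and House Wrens 19.3, 31.1 and 32.8 CPM against 12.6, 12.9, 17.1, 18.1 and 18.6 CPM in Carolina Wrens (log2 0.85 ± 0.18, without overlap). Changes in the other families were 0.00, -0.07 and -0.89 and missed the threshold. ESR1, the oestrogen receptor alpha, was higher in Eurasian Tree Sparrows, with 3.72, 5.69 and 9.89 CPM against 1.74, 2.69 and 3.65 CPM in House Sparrows (log2 1.20 ± 0.28), and missed the threshold elsewhere. ESR2, the oestrogen receptor beta, was called in House Wrens (0.66), a call that ended when any of 5 males was left out or Carolina Wren male 3 was kept (0.37). SRD5A2, which makes dihydrotestosterone, was called lower in Tree Swallows (-0.74), a call that ended without Barn Swallow male 4 or 5 or Tree Swallow male 1. SRD5A1 and PGR, the progesterone receptor, were called in no family.

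CRHR1, the receptor for corticotropin-releasing hormone, was called in 4 families, in both directions. Tree Swallows had 25.8, 27.1 and 36.6 CPM against 13.4, 17.9 and 21.8 CPM in Barn Swallows (log2 0.70 ± 0.15), and Prothonotary Warblers 9.08, 12.7 and 18.2 CPM against 3.97, 5.41 and 7.68 CPM in Yellow Warblers (log2 1.17 ± 0.20), without overlap in either pair. Eastern Bluebirds had 20.0, 23.1 and 68.8 CPM against 1.88, 7.59 and 10.6 CPM in robins (log2 2.14 ± 0.40), also without overlap. The 68.8 CPM belonged to bluebird male 12, and the change without it was 1.73 (adjusted p = 0.000942, edgeR). House Wrens had 10.1, 13.3 and 23.0 CPM against 8.57, 8.77, 10.2, 10.8 and 11.8 CPM in Carolina Wrens (log2 0.57 ± 0.22, adjusted p = 0.0508, edgeR). Eurasian Tree Sparrows went the other way, with 5.03, 6.83 and 9.23 CPM against 8.13, 13.4 and 22.0 CPM in House Sparrows (log2 -0.97 ± 0.24, with overlap). The dependence on the family had an adjusted p of 1.47e-08 (edgeR), in a test that called 77.6% of all genes.

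NR3C1, the glucocorticoid receptor, was lower in 2 obligate species. House Wrens had 19.3, 21.1 and 27.6 CPM against 40.3, 42.2, 45.4, 45.4 and 48.4 CPM in Carolina Wrens (log2 -0.96 ± 0.12, adjusted p = 1.46e-05, edgeR), and Eastern Bluebirds 17.0, 29.6 and 35.0 CPM against 32.8, 59.4 and 64.0 CPM in robins (log2 -0.94 ± 0.21). The wrens did not overlap and the thrushes did. The other families gave 0.35, -0.17 and -0.25 and missed the threshold. NR3C2, the mineralocorticoid receptor, was called in Tree Swallows (0.52) and CRH, the releasing hormone itself, in Eurasian Tree Sparrows (0.73), each higher and in no other family. Of 12 stress axis genes measured, 9 were called in some family (75.0%, against 85.4% of all genes), 6 in 1 direction and 3 in both.

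**Figure D4:**
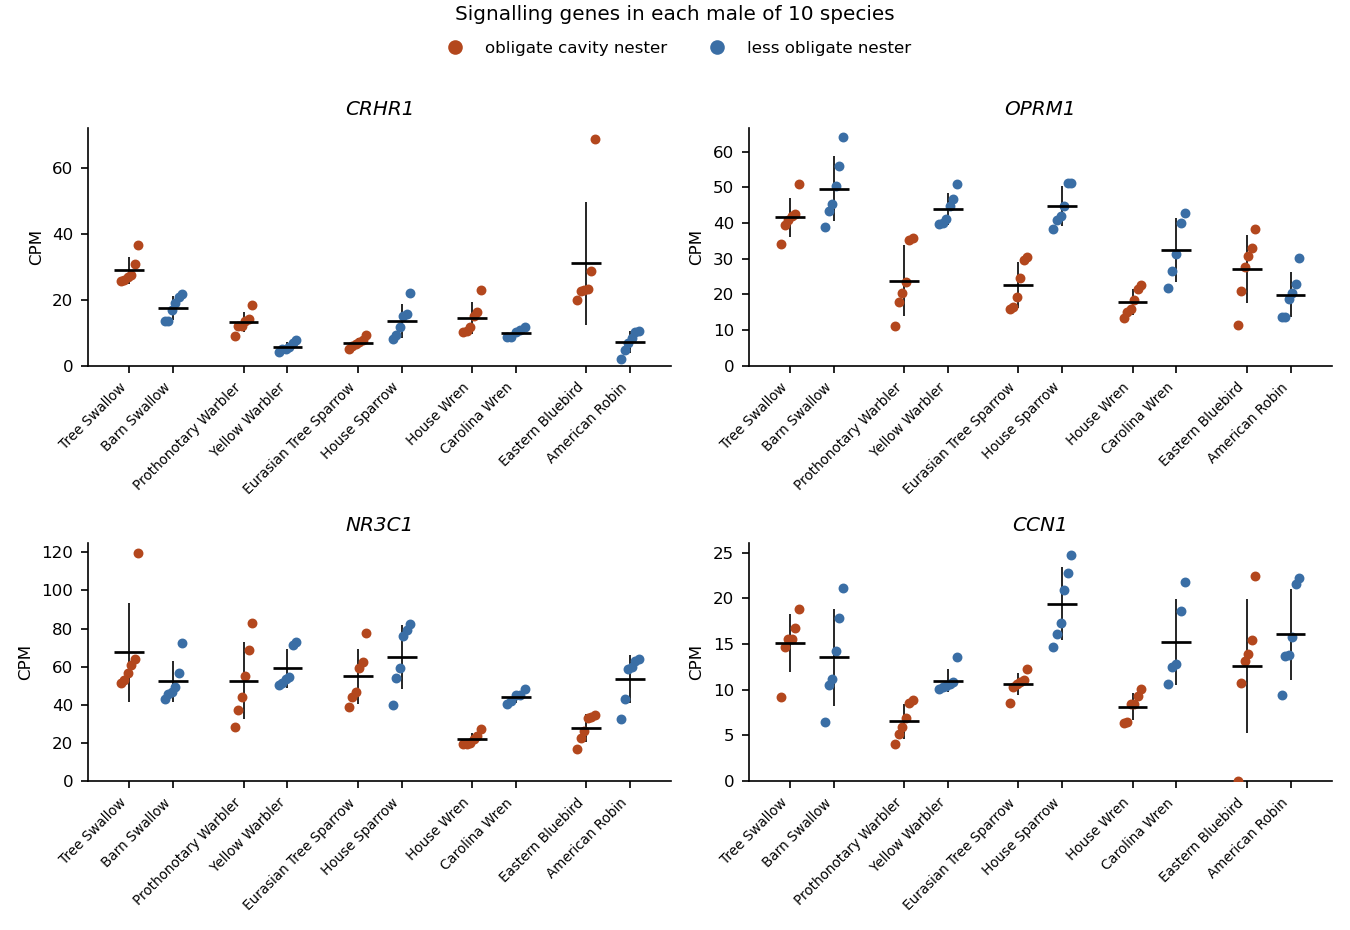
CPM (vertical axes, linear) of CRHR1, OPRM1, NR3C1 and CCN1 in each of the 59 males, by species, with the obligate species left of its partner in each family. Points are males, horizontal lines means and vertical bars SD; CRHR1 is higher in Tree Swallows, Prothonotary Warblers and Eastern Bluebirds and lower in Eurasian Tree Sparrows, and 1 bluebird stands at 68.8 CPM.

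Over all 6 lists of behavioural genes, 3 of the 136 members tested in all 5 families (2.21%) were called 1 way in at least 3 families and the other way in none, against 7.16% of all genes. OPRM1 and CCN1 were among them. OPRM1, the mu opioid receptor, was lower in Prothonotary Warblers (11.0, 21.8 and 35.7 CPM against 39.8, 42.9 and 50.9 CPM in Yellow Warblers; log2 -0.88 ± 0.23) and in Eurasian Tree Sparrows (15.8, 21.8 and 30.4 CPM against 38.4, 43.4 and 51.3 CPM in House Sparrows; log2 -0.98 ± 0.17), without overlap. It was lower in House Wrens with overlap, at 13.4, 17.2 and 22.6 CPM against 21.8, 26.4, 31.2, 40.0 and 42.7 CPM in Carolina Wrens (log2 -0.81 ± 0.18). Tree Swallows (-0.27) and Eastern Bluebirds (0.44) missed the threshold.

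DRD2, a dopamine receptor, was higher in House Wrens, with 28.8, 37.7 and 54.5 CPM against 9.11, 15.9, 17.4, 23.8 and 24.5 CPM in Carolina Wrens (log2 1.22 ± 0.22). TH, the first enzyme of dopamine synthesis, was called lower in Tree Swallows (-0.71), a call that ended when any of 7 males was left out. HTR1A, a serotonin receptor, was called higher in House Wrens (0.75) and lost the call without Carolina Wren male 7 or 8. DRD1 was called in no family, and 13 of the 29 monoamine genes measured were not called in any (44.8%, against 14.6% of all genes).

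Among neuropeptide genes, AVPR1A, a vasotocin receptor, was higher in Eurasian Tree Sparrows (0.97) and called nowhere else. Of 42 measured genes of the list 33 were called in at least 1 family (78.6%, against 85.4% of all genes), 21 in 1 direction and 12 in both. VIPR1 was called in no family, and AVP, OXT, OXTR and VIP had no entry under these symbols.

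Of 27 immediate early genes measured, which neurons switch on within minutes of activity, 13 were called in no family (48.1%, against 14.6% of all genes). Another 9 were called in 1 direction and 5 in both. EGR1 was higher in Prothonotary Warblers (244, 299.6 and 445 CPM against 128, 146 and 247 CPM in Yellow Warblers; log2 0.90 ± 0.18). It was lower in Tree Swallows (91.3, 154 and 222 CPM against 123, 280.1 and 379 CPM in Barn Swallows; log2 -0.82 ± 0.26) and in Eastern Bluebirds (57.9, 77.8 and 122 CPM against 75.5, 115 and 249 CPM in robins; log2 -0.73 ± 0.24). All 3 pairs overlapped, and the Turdidae call ended without robin male 8 or bluebird male 10 or 14. The dependence of EGR1 on the family had an adjusted p of 8.97e-06 (edgeR), in a test that called 77.6% of all genes. CCN1, a secreted matrix protein induced with these genes, was lower without overlap in Prothonotary Warblers (4.02, 6.44 and 8.87 CPM against 10.1, 10.6 and 13.6 CPM in Yellow Warblers; log2 -0.75 ± 0.20). It was also lower in Eurasian Tree Sparrows (8.55, 10.7 and 12.3 CPM against 14.7, 19.1 and 24.8 CPM in House Sparrows; log2 -0.87 ± 0.16) and in House Wrens (6.32, 8.44 and 10.0 CPM against 10.6, 12.5, 12.8, 18.7 and 21.8 CPM in Carolina Wrens; log2 -0.85 ± 0.21). BDNF, a growth factor induced by activity, was called lower in Prothonotary Warblers (-0.81) and lost the call without Yellow Warbler male 6. FOS was called in no family.

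**Figure D5:**
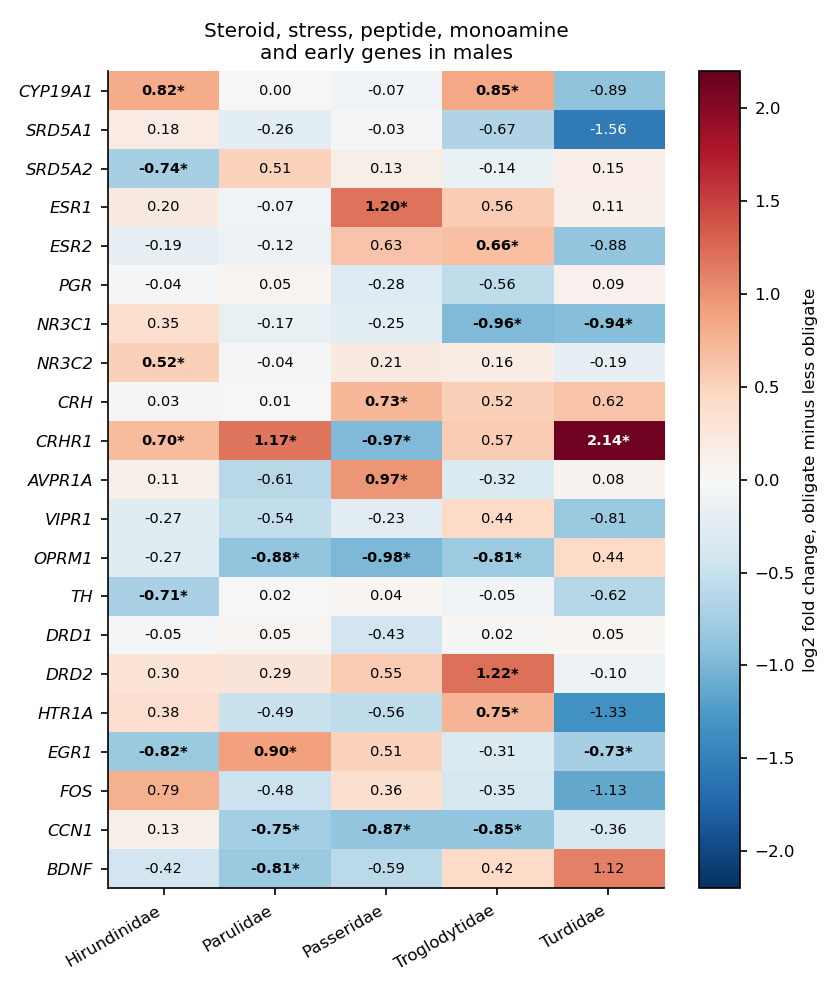
Log2 change of obligate over partner males (colour) of 21 genes of steroid, stress, peptide, monoamine and activity signalling, with genes down the page and the 5 families across. A star marks an adjusted p under 0.05 by edgeR; OPRM1 and CCN1 have 3 stars of 1 colour each, and CRHR1 and EGR1 have stars of both colours.

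Males of the same species also varied among themselves. The median over genes of the SD of log2 CPM was 0.284 ± 0.075 in obligate species and 0.276 ± 0.046 in partners (SD, n = 5 species each), higher in the obligate species in 2 of 5 families. The mean difference was 0.0076 (two-sided exact permutation test within families, p = 0.8125; 32 assignments of the label exist, and the smallest p they can give is 0.062). Without Eastern Bluebird male 12 the difference was -0.0044.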

How the data were processed

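RNA was measured in the ventromedial telencephalon of 121 birds, and the 59 male libraries described above were compared. The deposited table holds raw counts per gene that the authors made from stranded mRNA libraries, whole numbers with 1 column per bird. Tools named in the submitters' processing notes, without parameters, are fastp 0.20.1, Trimmomatic 0.36, SAMtools 1.10, Bowtie2 2.4.4 and featureCounts (Subread 2.02z). The name of the deposited table refers to zebra finch proteins. Genome build: not given in the sources used here.

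Counts were scaled by TMM and filtered by filterByExpr. Males of each pair were compared in R 4.3.3 by the quasi-likelihood test of edgeR 4.0.16, 1 fit a family, and species means of log2 CPM (prior count 2) by limma 3.58.1 with family as a block. Females were fitted likewise without Carolina Wren female 1, and the difference between the sexes was the interaction of sex and species. All tests were two-sided, with Benjamini-Hochberg adjustment over all genes and a threshold of 0.05. Alternatives included library size scaling, other filters, DESeq2 1.42.0, a replicate block and leaving out each male. The scripts were tested on simulated data with 200 changed genes. Figures used Python 3.11.15 and matplotlib 3.10.9.

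The members, the lists and the choice of genes to name were made with earlier results of these data known. The rule took the shared genes with the largest smallest change, the 5 higher and 5 lower genes with the smallest p over species means, up to 4 genes in each direction a family for the difference between the sexes, and the 3 highest and 3 lowest changes of a family with no overlap and a mean of 5 CPM or more in each species. It also took 24 genes of steroid, stress, peptide, monoamine and activity signalling, list members called 1 way in at least 3 families, and up to 4 members of any other list; a few of the genes so chosen are not reported here. Replicate numbers gave no clear sign of pairing the birds: over 18 pairs with the same number, correlations ran from -0.550 to 0.273 and 6 were over 0.1. So few pairs cannot settle whether equal numbers share a date, site or batch. Nothing in the labels ties birds to nests or sites, so p-values within a family rest on the spread among the sampled birds of each species. No sequence or position is given, since no genome was used here.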

Additional observations from a re-analysis of the deposited data

Results flagged for a closer look

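The values of 28 genes in the males of a species were examined in 140 groups, and in 18 of them 1 male lay far from the others of its species. The cut-off used gives such a male by chance in about 1 in 20 groups if values are normally distributed and groups independent. These groups share birds, and whether the CPM values were so distributed was not tested. Of the genes shared by all families, CLCC1 stood at 29.1 CPM in Eurasian Tree Sparrow male 6 (34.3 to 37.0 in the others) and POGLUT1 at 37.0 CPM in Carolina Wren male 8 (21.5 to 25.5). SLC7A6OS stood at 25.4 CPM in House Sparrow male 11 (36.6 to 42.8) and RAB3GAP1 at 164 CPM in Prothonotary Warbler male 7 (204.5 to 220.4). EML6 stood at 87.8 CPM in Yellow Warbler male 5 (49.1 to 56.6), CDADC1 at 53.7 CPM in Barn Swallow male 3 (73.2 to 79.7) and PPP2R2D at 41.2 CPM in American Robin male 2 (57.0 to 64.2).

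Among the other genes, HSPA2 stood at 594 CPM in Yellow Warbler male 2 (253 to 332 in the others), CRHR1 at 68.8 CPM in Eastern Bluebird male 12 (20.0 to 28.6) and ATP5F1A at 252 CPM in House Sparrow male 4 (174 to 201). ZNF462 stood at 51.9 CPM (2.88 to 17.0) and EGR1 at 122 CPM (57.9 to 78.9) in Eastern Bluebird male 13. EGR1 also stood at 445 CPM in Prothonotary Warbler male 8 (244 to 305), CCN1 at 13.6 CPM in Yellow Warbler male 8 (10.1 to 10.8) and COX3 at 72354 CPM in Eurasian Tree Sparrow male 6 (43747 to 53063). GABRA5, a GABA-A receptor subunit, stood at 43.6 CPM in Tree Swallow male 5 (88.7 to 110.2) and at 683 CPM in American Robin male 2 (184 to 363). DCAF12 stood at 0.149 CPM, a single count, in American Robin male 11 and at 0 in the other robin males.

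The change of obligate over partner was different in males and females, by edgeR's test of the interaction, for these named genes, given as the male minus the female log2 change. In Hirundinidae it was 3.34 for NDUFA1, 1.71 for CHD1W, 1.65 for ZBTB33, -1.74 for SMAD2 and -1.15 for SREK1. In Parulidae it was 4.86 for GOLPH3, and in Passeridae 5.48 for CHD1W, 1.74 for ATP5F1A, -2.61 for DCAF12 and -0.96 for NT5E. In Troglodytidae it was 3.91 for GOLPH3, 1.54 for DCAF12, 1.09 for ZFR, -8.14 for CHD1W, -2.95 for PTCH1, -2.02 for RPL37 and -0.64 for PRKAA1. In Turdidae it was 7.39 for DCAF12 and -3.62 for ZNF462. The values for CHD1W in Passeridae and Troglodytidae and for DCAF12 in Turdidae rest on male groups at or near 0 counts and are no bounds. House Sparrow males had 0 to 0.339 CPM of CHD1W, which lies on the W chromosome that males lack, and House Wren males 0 CPM. In Barn Swallow males it stood at 2.29 to 4.25 CPM. All males used of 3 other species had more, at 9.55 to 18.4 CPM in Tree Swallows, 6.59 to 14.8 CPM in Eurasian Tree Sparrows and 7.63 to 15.6 CPM in Carolina Wrens. The cause of these counts was not tested.

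In males the change depended on the family, by edgeR's test of nesting by family, for CRHR1 (adjusted p = 1.47e-08) and EGR1 (adjusted p = 8.97e-06).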

How the results depend on the processing

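A replicate block treats equal bird numbers as pairs, although the labels do not pair them and the profiles gave no clear sign of pairing. It gave 2463 called genes in Passeridae, 1880 in Turdidae and 3 shared by all families. An adjusted p under 0.01 left 7 of the 21 shared genes. Requiring only 4 families, each left out in turn, gave 70 to 80 genes, and leaving out 1 male at a time gave 17 to 23, an alternative chosen after seeing the data. Leaving out 1 male gave 4583 to 4779 calls in Hirundinidae, 3810 to 4714 in Parulidae, 3684 to 4019 in Passeridae, 4244 to 4473 in Troglodytidae and 3260 to 3811 in Turdidae. For the difference between the sexes DESeq2 called 21 genes in Hirundinidae and 93 in Troglodytidae, and keeping Carolina Wren male 3 and female 1 left 8 in Troglodytidae. The difference in spread between obligate species and partners turned to -0.0044 without Eastern Bluebird male 12. No call of a named gene turned its direction under the alternatives run for it; of their values under alternatives 3847 stayed on the same side of the threshold and 168 lost the call, 47 of them under the block. The male minus female difference of COX3 in Passeridae, which missed the threshold (10.47, adjusted p = 0.181, edgeR), was -0.12 without House Sparrow female 3. The cause of these changes was not tested.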

Other observations

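Nuclear genes of oxidative phosphorylation, which make the respiratory chain with the mitochondrially encoded subunits, were more often called higher than lower in obligate males of 4 families. Of 57 members tested, 17 were higher and 9 lower in Tree Swallows, and Eurasian Tree Sparrows had 22 higher and 5 lower. House Wrens had 16 higher and 5 lower and Eastern Bluebirds 10 higher and 3 lower, while 5 were higher and 9 lower in Prothonotary Warblers. Of all genes tested, 22.6% were higher and 24.4% lower in Hirundinidae, 18.7% and 19.4% in Passeridae, 23.3% and 20.1% in Troglodytidae, 17.4% and 17.5% in Turdidae, and 20.9% and 19.4% in Parulidae. In both directions together 45.6%, 47.4%, 36.8%, 22.8% and 24.6% of the list were called in the same family order, so its share was above that of all genes in Passeridae and below it in the other families. The median change of the list was 0.06 in Hirundinidae, -0.05 in Parulidae, 0.32 in Passeridae, 0.08 in Troglodytidae and 0.20 in Turdidae, against -0.00, 0.01, -0.01, 0.03 and 0.02 for all genes tested. ATP5ME, a small subunit of ATP synthase, went against this and was lower in 4 families (-0.58, -0.65, -0.63 and -0.43), though not past the threshold in Troglodytidae with Carolina Wren male 3 kept.

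GABA and glutamate receptors, the main inhibitory and excitatory receptors of the brain, gave 6 higher and 8 lower of 36 members in Tree Swallows, 3 and 7 of 35 in Prothonotary Warblers, 5 and 5 of 36 in Eurasian Tree Sparrows, 5 and 7 of 36 in House Wrens and 3 and 8 of 36 in Eastern Bluebirds. The share called (38.9%, 28.6%, 27.8%, 33.3% and 30.6%) was below that of all genes in each family (47%, 40.3%, 38.1%, 43.4% and 34.9%). GABRA5 was lower in 4 families. Tree Swallows had 43.6, 101 and 110.2 CPM (lowest, median and highest) against 220.6, 311 and 559.7 CPM in Barn Swallows, without overlap (log2 -1.98 ± 0.25). Eastern Bluebirds had 63.5, 83.7 and 203 CPM against 184, 284 and 683 CPM in robins, with overlap (log2 -1.62 ± 0.33). The smaller changes of Parulidae (-0.86) and Passeridae (-0.72) lost the call without Yellow Warbler male 3 in Parulidae and without any of 5 males in Passeridae, and Troglodytidae changed by -0.07. GRIK4, a kainate receptor subunit, was lower in 3 families (-1.41, -1.09 and -1.18 in Hirundinidae, Parulidae and Troglodytidae) and higher in Passeridae (0.47), a call lost with counts scaled to library size alone (0.31).

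In Turdidae 2 microglial genes, the receptor CSF1R (-1.16) and the transcription factor SPI1 (-1.69), were lower. THRB, a thyroid hormone receptor, was lower in Hirundinidae (-1.31), Parulidae (-0.95) and Passeridae (-0.94) and higher in Turdidae (1.09).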
